A study of Homo sapiens with 12 samples.

Results

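Collagen genes were taken as all genes whose symbol reads COL, a number, A and a number, and 44 of the 23527 named genes in the count tables met this rule. The 44 genes were described by the structural class of the protein they encode: 11 fibrillar genes, 6 basement membrane type IV genes, 10 genes of fibril-associated collagens (FACIT), 5 type VI genes, 2 multiplexin genes, 1 anchoring fibril gene, 3 genes of the type VIII and X networks, 4 transmembrane genes and 2 others. The cells were HEK293T, an established line of human embryonic kidney origin. All 12 libraries, 3 in each of 4 groups, came from cells transfected by lipofection with guide RNAs for 4 sites at IL1RN, the gene for the interleukin 1 receptor antagonist, so the controls carried the guides too. The groups differed in the protein delivered with the guides. dCas9, a Cas9 that binds DNA without cutting it, was given alone or in a fusion. The fusion partners were VP64, a transcription-activating domain of viral origin, the p300 core, which is the part of this acetyltransferase that modifies histones, and the same p300 core carrying D1399Y, a mutation that abolishes its activity. Delivery was transient and from plasmids, so each library pools cells that took up different amounts of plasmid, and in such bulk samples fewer expressing cells and less RNA per cell cannot be told apart.

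Collagens are secreted or membrane-bound proteins whose chains wind around each other into a triple helix. Fibrillar collagens such as types I, II, III and V form the banded fibrils of connective tissue, and FACIT collagens sit on the surface of those fibrils. Type IV collagen forms the sheet-like network of basement membranes, including that of the kidney glomerulus, and its genes lie in head-to-head pairs that share the stretch between their start sites. Type VI collagen forms beaded filaments next to basement membranes from an alpha1 chain (COL6A1), an alpha2 chain (COL6A2) and a longer chain encoded by COL6A3, COL6A5 or COL6A6. None of these genes was a guide target, and the comparisons asked whether the fused domains came with other collagen levels than dCas9 alone.

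Stretches upstream of COL4A5 and COL6A2 are shown because the results on pairs of chains turn on these genes and their partners. They come from RefSeq on GRCh38.p14, whereas the counts rest on hg19. Promoter windows were at hand for 32 of the 44 collagen genes and 18 of the 26 tested ones. Capitals mark matches on either strand to 3 promoter motifs that do not overlap in these stretches. They are the CCAAT box, searched by the letters of its name, the GC box, searched as GGGCGG, and the TATA box, searched as TATAAA.
COL4A5: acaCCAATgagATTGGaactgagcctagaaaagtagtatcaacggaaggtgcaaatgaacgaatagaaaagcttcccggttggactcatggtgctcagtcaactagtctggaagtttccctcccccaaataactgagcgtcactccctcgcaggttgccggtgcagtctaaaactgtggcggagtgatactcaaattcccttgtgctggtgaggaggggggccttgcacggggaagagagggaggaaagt
COL6A2: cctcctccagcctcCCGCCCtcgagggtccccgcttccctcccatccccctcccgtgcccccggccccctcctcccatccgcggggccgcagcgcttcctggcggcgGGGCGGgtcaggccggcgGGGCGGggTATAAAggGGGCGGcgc

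The COL4A5 stretch, chrX:108439588-108439837 on the plus strand, is the 250 bases before its RefSeq start site. It was 51.2% G and C and held 2 CCAAT boxes and no GC or TATA box. Of its bases, 121 also lie in the upstream window of COL4A6, whose nearest start site is 379 bases away on the opposite strand. The COL6A2 stretch, chr21:46097947-46098096 on the plus strand, spans 150 bases and ends 16 bases before the start site. It was 80.0% G and C and held 4 GC boxes and 1 TATA box. Among all 35116 upstream windows of 250 bases, 32.0% held a CCAAT box, 42.6% a GC box and 10.7% a TATA box. The shares among the 44 collagen windows of that length were 27.3%, 54.5% and 18.2%, and over all windows of 150 bases they were 23.5%, 36.8% and 6.71%. The 126 bases between the start sites of COL4A1 and COL4A2 on chromosome 13 were 80.2% G and C, with 1 CCAAT box and 1 GC box, and those of COL4A4 and COL4A3 on chromosome 2 lie 418 bases apart. These matches describe letters and no binding was measured.

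Total counts per library lay between 2442960 (dCas9 replicate 3) and 5154627 (dCas9-p300 core replicate 2). In the check of the targeted gene, IL1RN was 12.6-fold higher with the core than with dCas9 (adjusted p = 1.85e-05, edgeR), from 6.74 ± 2.51 to 83.6 ± 8.64 CPM (CPM being counts scaled to library size with TMM factors, mean ± SD, n = 3). The labels describe the transfections as triplicate and say no more on how independent they were, so p-values here measure the spread between these samples, which may be technical. Over the collagen genes, dCas9 replicate 3 was the library whose counts followed GC content most closely. Across the 26 tested collagen genes its log2 ratio to the mean of all libraries correlated with transcript GC at r = 0.84, and across 14088 tested genes at r = 0.51. These values are descriptions across genes, which are not independent replicates. All 9 tested collagen genes under 50% GC were below the mean in that library, with a median log2 ratio of -1.08, while 9 of 11 over 60% GC were above it, with a median of 0.23. It held the lowest level of 13 of the 26 genes. dCas9-p300 D1399Y replicate 2 leaned the other way (r = -0.62 over collagen genes and -0.64 over all genes, the largest in size over all genes). In dCas9-VP64 replicates 1, 2 and 3 r was -0.57, -0.67 and 0.52 over collagen genes and -0.28, -0.16 and 0.15 over all genes. The other libraries lay between -0.48 and 0.28 over collagen genes. For collagen genes and classes whose fold change against dCas9 is printed, the value without dCas9 replicate 3 is added where it differed by more than 1.5 times. The sequencing pool is labelled CV42 for replicate 3 of the core and of D1399Y and CV41 for the other 10 libraries, so the second pool held p300 libraries alone.

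**Figure D1:**
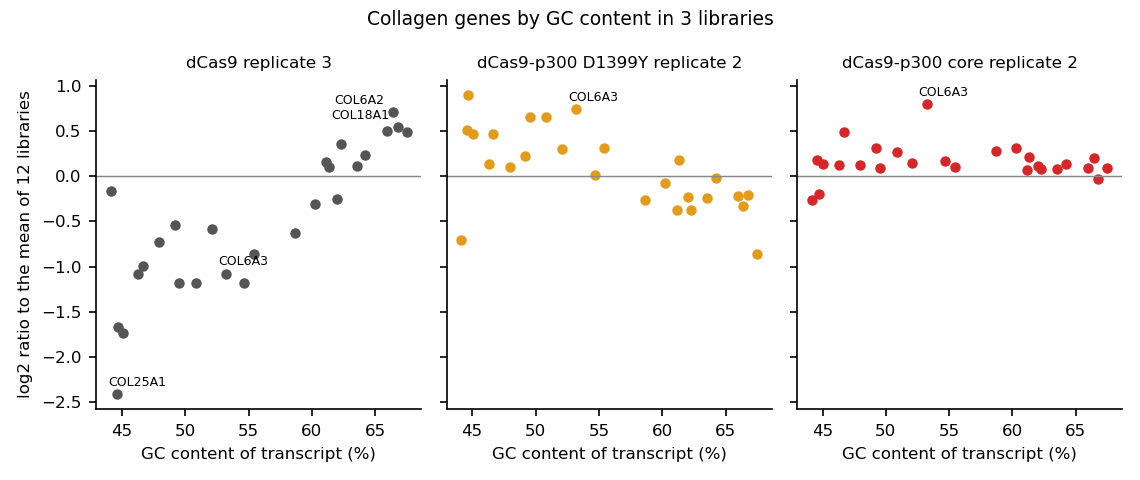
Each point is a tested collagen gene, placed by the GC content of its transcript (x axis, %) and by the log2 ratio of its level to the mean of the 12 libraries (y axis), in dCas9 replicate 3, dCas9-p300 D1399Y replicate 2 and dCas9-p300 core replicate 2. In dCas9 replicate 3 the ratio runs from -2.41 for COL25A1 at 44.6% GC to values above 0 for COL6A2 and COL18A1, both over 60% GC, while in core replicate 2 it shows no such slope (r = 0.0).

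Collagen transcripts made up a small share of the RNA, between 0.0803% and 0.1003% of the counts of a library, or 42307 counts in all. Type IV genes held the largest share of these, at 31.4%. Type VI genes held 22.0%, fibrillar genes 16.3%, FACIT genes 11.3%, multiplexin genes 11.3% and transmembrane genes 5.98%. The 10 genes with the most counts took 82.8% of the total. Per kilobase of transcript, the scale on which genes can be compared, COL6A2 and COL6A1 stood highest at means of 26 and 25.4 CPM per kilobase. COL18A1, a basement membrane collagen whose C-terminal end is released as endostatin, followed at 17.5, and the cartilage collagen gene COL2A1 at 15.2. COL4A2 (12.1), the FACIT gene COL14A1 (11.9), COL4A5 (10.3), COL4A6 (10.0), COL4A1 (8.67) and COL25A1 (7.08) came next. The ranges of neighbours in this order overlapped over the 12 libraries. Among the fibrillar genes COL5A1 reached 3.67, COL1A1 2.44 and COL3A1 1.30 CPM per kilobase.

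**Figure D2:**
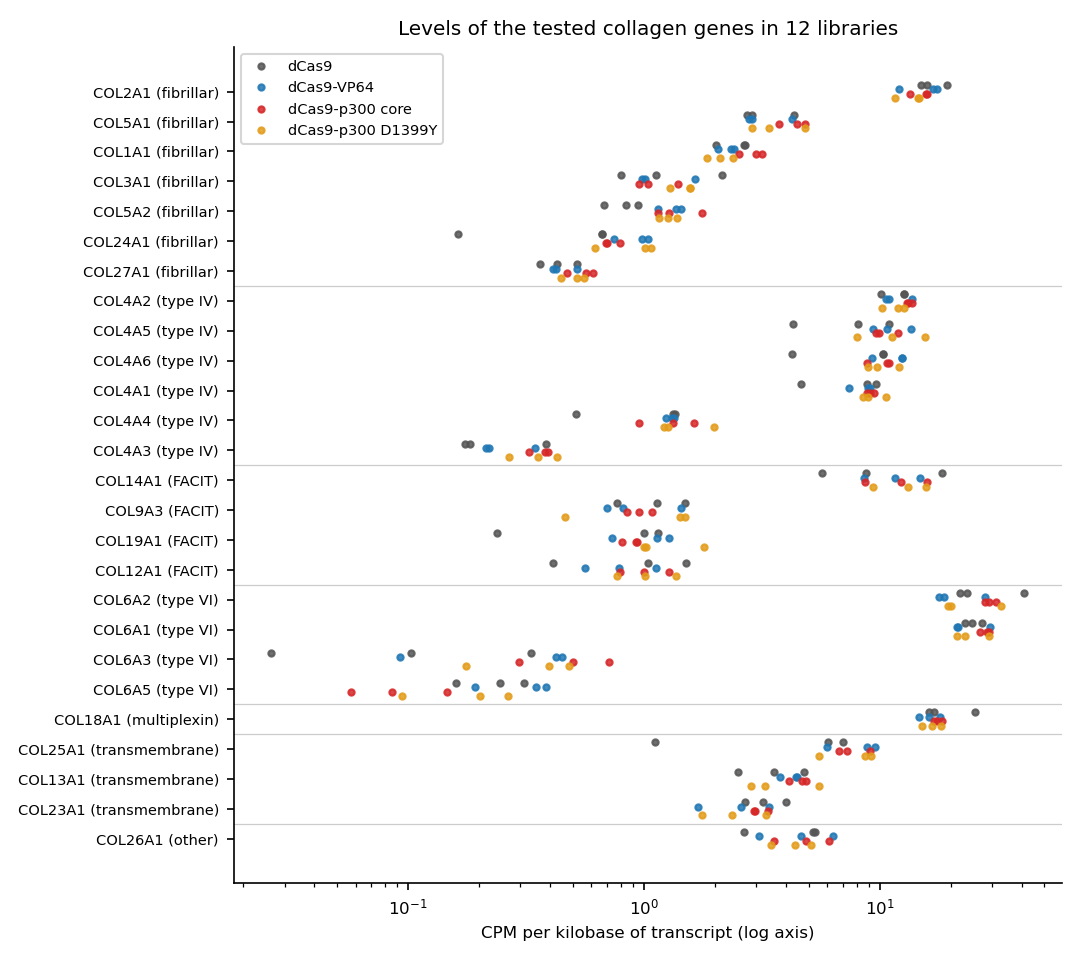
Each point is the level of a tested collagen gene in 1 library, in CPM per kilobase of transcript on a log axis, with genes ordered by class and then by mean level, and groups in colour. COL6A2 and COL6A1 lie furthest right, and the single points furthest left belong to COL6A3 and COL6A5. By mean level COL4A3 (0.306) lies below COL6A3 (0.333). dCas9 replicate 3 gives the isolated low grey points of COL24A1 and COL25A1.

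The filter on low counts left 18 of the 44 genes untested. They held 396 counts over all libraries, 0.936% of the collagen counts, and no single library gave more than 16 counts to any of them. COL11A1 and COL20A1 had 0 counts in all 12 libraries, which allows a level of up to 0.0653 CPM over the pooled libraries at 3 counts (counting error only). Another 9 of the 18 had a total of 10 or more counts, led by COL21A1 with 88, COL9A2 with 80 and the anchoring fibril gene COL7A1 with 63, and the rest had totals under 10. COL1A2, the partner chain of COL1A1 in type I collagen, had 1 count in all, in dCas9-p300 core replicate 2. COL1A1 had 754. All 3 genes of the type VIII and X networks stayed under the filter, with totals of 28 (COL8A1), 12 (COL8A2) and 2 (COL10A1), as did the multiplexin gene COL15A1 with 46. COL11A2 had 24 counts, of which 21 fell on a short annotated transcript of 1194 bases.

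Markers of cells that make much collagen were mixed in level. Of 10 fibroblast genes other than collagens, 4 were tested. THY1 and FAP had 0 counts in all libraries, while DCN had 9, POSTN 11 and LUM 54 over the 12 libraries. The summed level of the list ran from 145 to 190 CPM with dCas9, 123 to 161 with dCas9-VP64, 153 to 159 with the core and 148 to 156 with D1399Y, most of it FBLN1 and TWIST1, at means of 116 and 25.8 CPM. All 7 genes of a list for the HEK293 lineage were tested. For chondrocytes, cells that express COL2A1, SOX9 was at a mean of 24.8 CPM, ACAN at 2.26 CPM and HAPLN1 had 1 count in all.

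No collagen gene differed between groups at the threshold of 0.05 on the adjusted p. In edgeR 0 of 26 passed with dCas9-VP64, with the core and with D1399Y, each against dCas9, with the core against D1399Y or dCas9-VP64, and in the test of any difference among the 4 groups. The share of all 14613 tested genes that passed was 0.0%, 0.00684%, 0.0%, 0.00684%, 0.00684% and 0.0205% in that order. The smallest adjusted p was 0.633 among collagen genes over the pairwise tests and 0.985 in the test among the 4 groups. DESeq2 and limma-voom also passed 0. At an unadjusted p under 0.05 in edgeR the counts of collagen genes were 2 of 26 with dCas9-VP64 (3.07% of all genes), 3 with the core (3.11%), 1 with D1399Y (5.89%), 1 with the core against D1399Y (1.86%), 1 with the core against dCas9-VP64 (2.11%) and 2 among the 4 groups (1.85%). These small counts belong to 5 genes, COL5A2, COL24A1, COL6A3, COL6A5 and COL1A1, whose values are given with their classes. The 3 comparisons against dCas9 share the same control libraries and are not independent of each other.

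What the data could show differed from gene to gene. The 95% interval of the fold change lay inside 2-fold either way for 17 of 26 genes with dCas9-VP64, 17 with the core and 16 with D1399Y against dCas9, for 20 with the core against D1399Y and for 19 with the core against dCas9-VP64. COL4A2 had the narrowest standard error, 0.14 to 0.15 on the log2 scale. COL6A3 had the widest, 0.57 to 0.70. For the other genes the interval reached 2-fold.

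Summed over all 44 genes, the collagen level was 876 ± 81.8 CPM with dCas9, 898 ± 71.8 with dCas9-VP64, 970 ± 41.6 with the core and 917 ± 26.3 with D1399Y (SD, n = 3). Single libraries lay between 818 and 999 CPM, and all groups overlapped. The number of tested collagen genes with a log2 fold change above 0 was 15 of 26 with dCas9-VP64 against dCas9, at a median of 0.07, where 50.9% of all genes were above 0 at a median close to 0. With the core it was 20 of 26 at a median of 0.20 (52.5% of all genes), and with D1399Y 17 of 26 at a median of 0.12 (50.2%). Single control libraries moved these values. Without dCas9 replicate 3 the counts for dCas9-VP64, the core and D1399Y were 13, 17 and 16 of 26. The medians were -0.01, 0.11 and 0.05, and 49.8%, 48.9% and 50.7% of all genes were above 0. Without dCas9 replicate 2 the counts were 19, 20 and 18 at medians of 0.29, 0.38 and 0.43 (51.5%, 52.8% and 51.0% of all genes). Without dCas9 replicate 1 they were 12, 18 and 17 at medians of -0.07, 0.21 and 0.06 (48.4%, 49.8% and 48.3%). In the CV41 pool alone the core gave 17 of 26 at a median of 0.16 (52.4%) and D1399Y 15 of 26 at a median of 0.21 (48.9%). Against D1399Y the core gave 14 of 26 above 0 (51.1%) at a median of 0.07, and 19 of 26 (49.8%) at a median of 0.11 without D1399Y replicate 2. Against dCas9-VP64 the core gave 17 of 26 (49.5%) at a median of 0.09, with medians from 0.04 without dCas9-VP64 replicate 1 to 0.16 without core replicate 1. No test was made of these counts.

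**Figure D3:**
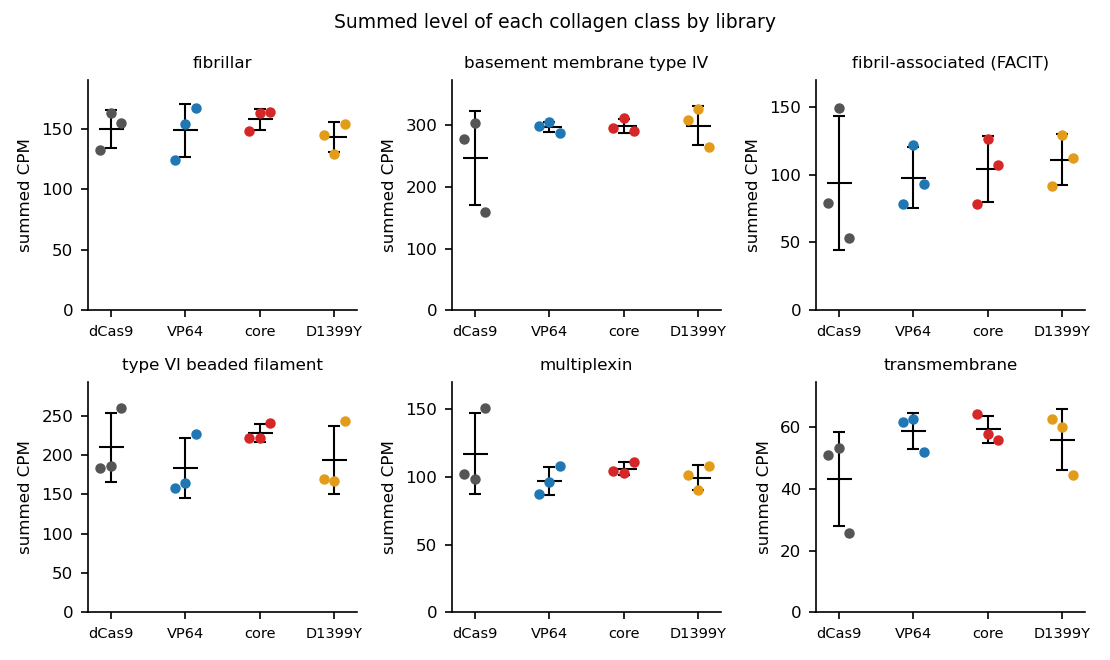
Summed CPM of 6 collagen classes, each point a library and each bar the group mean with its SD (n = 3), on axes that start at 0. The type IV, FACIT and transmembrane sums are lowest in dCas9 replicate 3 (159, 53.0 and 25.6 CPM), and the type VI and multiplexin sums are highest there (260 and 151 CPM).

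Fibrillar genes had 7 tested members of 11, and their summed level was 150 ± 15.6 CPM with dCas9, 149 ± 21.9 with dCas9-VP64, 158 ± 8.85 with the core and 143 ± 12.4 with D1399Y. COL2A1, the chain of cartilage type II collagen and the fibrillar gene of highest level per kilobase, stood at 75.9, 80.4 and 97.8 CPM for dCas9, 61.0, 85.8 and 88.6 for dCas9-VP64, 68.1, 80.4 and 79.5 for the core, and 73.8, 58.7 and 74.5 for D1399Y. All 3 D1399Y libraries were below all 3 dCas9 libraries, an arrangement seen for 1 collagen gene of 26 and for 3.82% of all genes, and the log2 fold change was -0.29 ± 0.17 (SE), or -0.18 without dCas9 replicate 3. COL5A2 encodes a chain of type V collagen, which sits inside type I fibrils and limits their width. Its counts were 21, 28 and 13 for dCas9, 41, 32 and 38 for dCas9-VP64, 47, 47 and 31 for the core, and 36, 31 and 31 for D1399Y. Its mean level of 5.82 ± 0.95 CPM with dCas9 compared with 9.33 ± 1.06, 9.89 ± 2.26 and 8.99 ± 0.76 CPM in the same order, and none of the 9 other libraries overlapped the dCas9 group. With dCas9-VP64 against dCas9, COL5A2 and COL24A1 were the collagen genes whose groups did not overlap, both higher, and 0 of 26 were lower in that way (2.74% of all genes). Its log2 fold changes against dCas9 were 0.66 ± 0.24, 0.74 ± 0.24 and 0.61 ± 0.24, with an edgeR adjusted p of 0.929, 0.879 and 0.633. Without dCas9 replicate 3 they were 0.56, 0.63 and 0.50. Over all genes the share with every library above every dCas9 library was 3.2% for dCas9-VP64, 3.89% for the core and 3.44% for D1399Y. COL5A1, the other tested type V chain, had a per-kilobase level 3.19 times that of COL5A2 (median over libraries, range 1.94 to 4.60) and log2 fold changes whose intervals all included 0.

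COL24A1, a fibrillar collagen of developing bone and cornea, had 16, 19 and 3 counts for dCas9, 27, 28 and 20 for dCas9-VP64, 18, 28 and 18 for the core, and 27, 24 and 16 for D1399Y. The dCas9-VP64 and core libraries all lay above the dCas9 libraries in CPM, and the 3 counts of dCas9 replicate 3 were the lowest. The log2 fold change with dCas9-VP64 was 0.82 ± 0.37 (edgeR adjusted p = 0.929), or 0.47 without that library. COL1A1, a chain of type I collagen, had 48, 75 and 49 counts for dCas9, 56, 62 and 64 for dCas9-VP64, 76, 88 and 81 for the core, and 59, 43 and 53 for D1399Y. In CPM the core libraries lay above all D1399Y libraries (16.0, 12.4 and 14.1 against 20.1, 17.0 and 21.3) and above all dCas9-VP64 libraries, and overlapped the dCas9 libraries. The log2 fold change of COL1A1 was 0.45 ± 0.19 against D1399Y (edgeR adjusted p = 1.0) and 0.23 ± 0.19 against dCas9. Such an arrangement against D1399Y was seen for 2 of 26 collagen genes, COL1A1 and COL4A2, and for 5.41% of all genes. COL3A1, the chain of type III collagen, had between 12 and 50 counts, with groups that overlapped in all 5 pairwise comparisons.

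**Figure D4:**
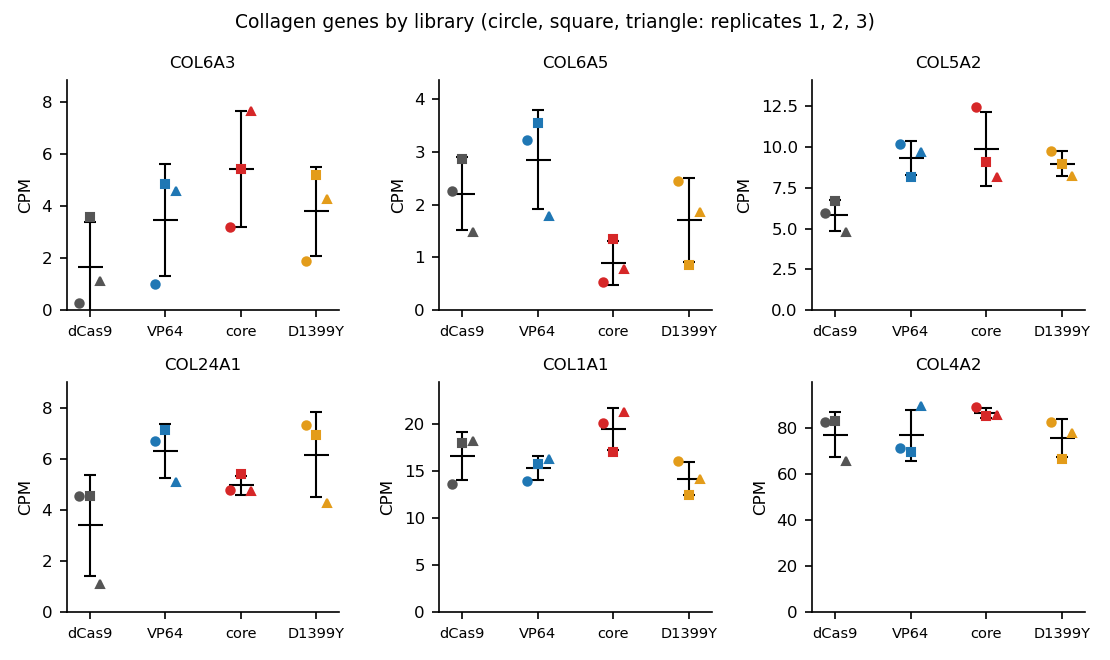
CPM of 6 collagen genes in each library (circle, square and triangle for replicates 1, 2 and 3), with the group mean and SD (n = 3) on axes that start at 0, where the lower SD bar of COL6A3 in dCas9 is cut off. COL5A2 is lowest in the dCas9 group, COL6A5 in the core group, and replicate 1 gives the lowest COL6A3 value in each group.

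All 6 type IV genes were tested, and their sum was 247 ± 76.8 CPM with dCas9, 297 ± 8.79 with dCas9-VP64, 299 ± 11.5 with the core and 299 ± 31.8 with D1399Y. The dCas9 mean rests on dCas9 replicate 3 at 159 CPM, since the other dCas9 libraries stood at 277 and 303 CPM. With the core 6 of 6 genes had a log2 fold change above 0 against dCas9, at a median of 0.26, and without that library 3 of 6, at a median of 0.02. With dCas9-VP64 5 of 6 were above 0 at a median of 0.19, or 2 of 6 at -0.08 without it, and with D1399Y 5 of 6 at 0.37, or 4 of 6 at 0.08. COL4A1 and COL4A2 encode the alpha1 and alpha2 chains found in nearly all basement membranes. COL4A1 was at 58.7, 63.6 and 30.7 CPM for dCas9, 60.1, 48.9 and 59.3 for dCas9-VP64, 58.8, 60.5 and 62.4 for the core, and 56.2, 70.2 and 58.8 for D1399Y. COL4A2 was at 82.2, 82.7 and 65.6 CPM for dCas9, 71.0, 69.5 and 89.3 for dCas9-VP64, 88.7, 84.8 and 85.5 for the core, and 82.2, 66.5 and 77.5 for D1399Y. The 3 core libraries of COL4A2 lay above all dCas9 and all D1399Y libraries by a small margin, with log2 fold changes of 0.16 ± 0.15 (0.07 without dCas9 replicate 3) and 0.19 ± 0.14. Per kilobase the ratio of COL4A2 to COL4A1 had a median of 1.43, from 0.964 in D1399Y replicate 2 to 2.17 in dCas9 replicate 3, the libraries of opposite GC lean. The transcripts are 62.0% and 55.4% G and C.

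COL4A5 and COL4A6 form chains of the kidney and smooth muscle basement membranes, and mutations of COL4A5 cause the inherited kidney disease Alport syndrome. COL4A5 was at 52.4, 71.0 and 27.8 CPM for dCas9, 69.7, 88.0 and 60.6 for dCas9-VP64, 62.8, 77.3 and 64.2 for the core, and 73.0, 101 and 52.2 for D1399Y. COL4A6 was at 69.4, 69.4 and 28.5 CPM for dCas9, 83.1, 83.7 and 62.1 for dCas9-VP64, 71.8, 73.2 and 59.5 for the core, and 81.2, 65.6 and 59.9 for D1399Y. Both were lowest in dCas9 replicate 3, and their groups otherwise overlapped. The ratio of COL4A5 to COL4A6 per kilobase had a median of 1.01 and a range of 0.78 to 1.59. COL4A3 and COL4A4, which join COL4A5 in the glomerular network, were lower. COL4A3 had 5, 13 and 4 counts for dCas9, 7, 7 and 11 for dCas9-VP64, 12, 16 and 10 for the core, and 8, 10 and 13 for D1399Y. COL4A4 had 47, 57 and 14 counts for dCas9, 50, 52 and 53 for dCas9-VP64, 36, 69 and 62 for the core, and 47, 69 and 46 for D1399Y, a median of 4.32 times COL4A3 per kilobase. The largest log2 fold changes of the type IV genes were 0.56 ± 0.29 for COL4A5 with D1399Y and 0.51 ± 0.29 with dCas9-VP64, and every interval of a type IV gene included 0. Without dCas9 replicate 3 these values were 0.28 and 0.23.

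Type VI genes had 4 tested members of 5 and a sum of 210 ± 43.8 CPM with dCas9, 183 ± 38.2 with dCas9-VP64, 228 ± 11 with the core and 193 ± 43.2 with D1399Y. COL6A1 was at 105, 97.3 and 116 CPM for dCas9, 91.3, 90.3 and 124 for dCas9-VP64, 120.5, 113 and 123 for the core, and 98.0, 90.5 and 123 for D1399Y. COL6A2 was at 75.9, 81.3 and 142 CPM for dCas9, 62.0, 64.6 and 96.5 for dCas9-VP64, 97.2, 100.45 and 108 for the core, and 67.3, 69.4 and 114 for D1399Y. In each group replicate 3 was the highest library for COL6A2, and all 3 core libraries lay above all dCas9-VP64 libraries (log2 0.45 ± 0.26), as did 5.65% of all genes. The ratio of COL6A1 to COL6A2 per kilobase had a median of 1.03, from 0.664 in dCas9 replicate 3 to 1.2.

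COL6A3, the long alpha3 chain that completes the usual type VI monomer, was read far less. Its counts were 1, 15 and 3 for dCas9, 4, 19 and 18 for dCas9-VP64, 12, 28 and 29 for the core, and 7, 18 and 16 for D1399Y, 170 in all over 5 annotated transcripts. Replicate 1 was the lowest library of each group. The 95% exact Poisson interval, which covers counting error only, ran from 0.0253 to 5.57 for the 1 count of dCas9 replicate 1 and from 8.40 to 24.7 for the 15 counts of dCas9 replicate 2, so these intervals within the same group did not overlap. The mean level was 1.66 ± 1.72 CPM with dCas9, 3.47 ± 2.15 with dCas9-VP64, 5.41 ± 2.23 with the core and 3.79 ± 1.70 with D1399Y, and the libraries of the 4 groups overlapped. The log2 fold change with the core against dCas9 was 1.58 ± 0.65, or 2.99-fold, with a 95% interval of 0.18 to 2.98 and an edgeR adjusted p of 0.879. It lay between 1.06 without dCas9 replicate 1 and 3.00 without dCas9 replicate 2, so single control libraries set its size. With dCas9-VP64 it was 0.94 ± 0.70, with D1399Y 1.06 ± 0.70, and the core against D1399Y gave 0.52 ± 0.57. Leaving out dCas9 replicate 2 took the value to 2.36 with dCas9-VP64 and to 2.49 with D1399Y, and leaving out dCas9 replicate 1 took them to 0.42 and 0.55. COL6A1 exceeded COL6A3 per kilobase by a median of 71.0 times, from 41 in core replicate 3 to 936 in dCas9 replicate 1. That last ratio rests on the 1 count.

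COL6A5, an alternative to COL6A3 in the trimer, had 8, 12 and 4 counts for dCas9, 13, 14 and 7 for dCas9-VP64, 2, 7 and 3 for the core, and 9, 3 and 7 for D1399Y. The core libraries lay below all dCas9 and all dCas9-VP64 libraries in CPM, as did 3.02% and 4.63% of all genes. COL6A5 reached 10 counts only in dCas9 replicate 2 and dCas9-VP64 replicates 1 and 2. It was thus tested through groups in which it was high, which favoured a low core, so its low core values are description only. The log2 fold change was -1.26 ± 0.50 against dCas9 (edgeR adjusted p = 0.879) and -1.58 ± 0.47 against dCas9-VP64 (edgeR adjusted p = 1.0), from 12 counts in the whole core group. The core overlapped D1399Y, at -0.88 ± 0.52. COL6A3 and COL6A5 thus had the highest and the lowest log2 fold change of the 26 genes with the core against dCas9, and both stood at or near the lowest counts that the filter let through. COL6A6, the remaining type VI gene, had 18 counts and was not tested.

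**Figure D5:**
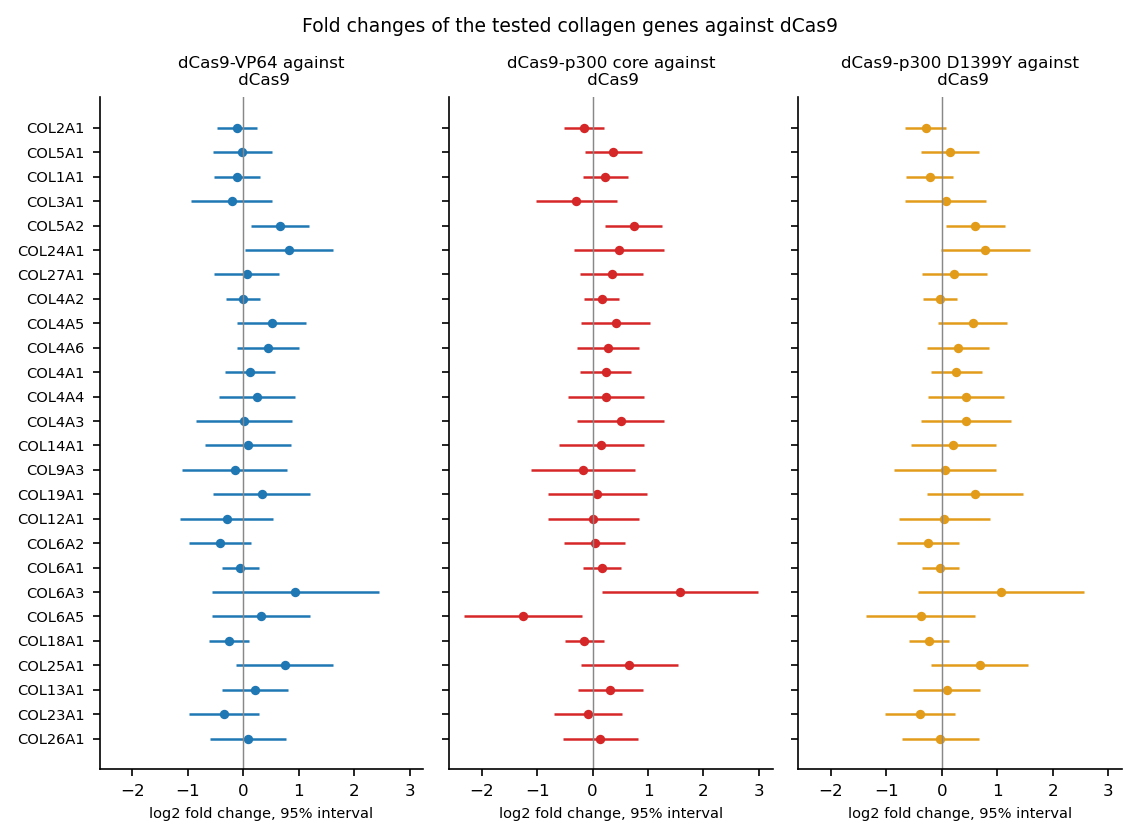
Log2 fold change of each tested collagen gene against dCas9 with its 95% interval, in a panel each for dCas9-VP64, dCas9-p300 core and dCas9-p300 D1399Y. The interval of COL5A2 lies above 0 in all panels, those of COL6A3 and COL6A5 exclude 0 with the core, that of COL24A1 excludes 0 with dCas9-VP64, and none of these passed the adjusted threshold.

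FACIT genes had 4 tested members of 10 and a sum of 93.7 ± 49.5, 97.7 ± 22.5, 104 ± 24.3 and 111 ± 18.9 CPM in the order dCas9, dCas9-VP64, core and D1399Y. COL14A1, which binds along the surface of type I fibrils, was at 56.4, 119 and 36.7 CPM for dCas9, 55.6, 96.2 and 75.3 for dCas9-VP64, 55.9, 103 and 80.0 for the core, and 60.5, 102 and 85.7 for D1399Y. Replicate 2 was the highest library in each group, and the groups overlapped. Its log2 fold changes against dCas9 were 0.08 ± 0.36, 0.16 ± 0.36 and 0.21 ± 0.36, and -0.22, -0.14 and -0.09 without dCas9 replicate 3. COL12A1 had 13 to 74 counts, COL19A1 4 to 39 and COL9A3 4 to 14. The core libraries of COL19A1 lay below all D1399Y libraries (log2 -0.52 ± 0.39), as did 4.49% of all genes. Its transcript is 44.7% G and C.

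COL18A1 was at 101, 96.4 and 150.4 CPM for dCas9, 86.9, 95.9 and 107 for dCas9-VP64, 103, 100.6 and 109 for the core, and 98.8, 89.3 and 108 for D1399Y. The one high value was dCas9 replicate 3, and the log2 fold changes against dCas9 were -0.26 ± 0.17, -0.15 ± 0.17 and -0.23 ± 0.17, or -0.03, 0.08 and 0.0 without it. Transmembrane collagens keep an N-terminal anchor in the plasma membrane, and 3 of their 4 genes were tested. COL25A1, a collagen of neurons found in amyloid plaques, was at 28.1, 32.3 and 5.19 CPM for dCas9, 44.4, 40.97 and 27.7 for dCas9-VP64, 42.1, 33.6 and 31.0 for the core, and 40.2, 42.5 and 25.6 for D1399Y. The 5.19 CPM of dCas9 replicate 3 came from 14 counts and was the furthest below the mean of any collagen gene in that library. Its log2 fold changes against dCas9 were 0.75 ± 0.41, 0.66 ± 0.41 and 0.68 ± 0.41, and 0.32, 0.23 and 0.26 without that library. COL13A1, a collagen of the neuromuscular junction, had 21 to 78 counts, COL23A1 20 to 47 and COL17A1, of the hemidesmosome, 4 counts in all. COL26A1, placed outside the other classes, was at 7.93, 15.8 and 15.6 CPM for dCas9, 9.18, 13.7 and 18.8 for dCas9-VP64, 10.6, 14.5 and 18.2 for the core, and 10.3, 13.01 and 15.2 for D1399Y. Replicate 1 was its lowest library in each group, and no group stood apart.

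Pairs of genes whose chains assemble together, or that share a start region, were compared over the 12 libraries (5 pairs, log2 of CPM plus 0.5, two-sided permutation tests with Benjamini-Hochberg adjustment over the 5). COL6A1 and COL6A2 had the closest relation, with Pearson r = 0.85 (permutation p = 0.00096, adjusted 0.0048) and Spearman rho = 0.77 (permutation p = 0.00464, adjusted 0.0232). It was 0.81 after leaving out the 2 libraries with COL6A1 farthest from its median, 0.86 for deviations from the group means and 0.82 in the 10 libraries of the sequencing pool labelled CV41. The CV42 pool held 2 libraries, too few for a value. Replicate 3 was the highest library of each group for both genes, and r was 0.52 once the means of the replicate numbers were removed along with the group means. The permutations did not take the replicate numbers into account. Both transcripts are GC-rich (63.5% and 66.4%), and whether GC content plays a part in this relation was not tested. For COL4A5 and COL4A6 r was 0.84 (permutation p = 0.0174, adjusted 0.0435) and rho 0.60 (permutation p = 0.0438, adjusted 0.11). That r was 0.42 without dCas9 replicate 3 alone, 0.93 without D1399Y replicate 2 alone and 0.70 without both, which were the 2 farthest libraries. It was 0.84 in CV41, 0.78 for deviations from the group means and 0.74 with the means of the replicate numbers also removed. COL4A1 with COL4A2 gave r = 0.46 (permutation p = 0.185, adjusted 0.308) and rho = 0.27 (permutation p = 0.388, adjusted 0.647), with r = -0.58 after leaving out 2 libraries and 0.44 in CV41. COL4A3 with COL4A4 gave r = 0.39 (permutation p = 0.262, adjusted 0.328) and rho = 0.13 (permutation p = 0.695, adjusted 0.695), with r = -0.01 and 0.41. COL6A1 with COL6A3 gave r = 0.23 (permutation p = 0.47, adjusted 0.47) and rho = 0.15 (permutation p = 0.635, adjusted 0.695), with r = 0.56 and 0.03. The r of COL4A1 with COL4A2 hung on single libraries. It was -0.01 without dCas9 replicate 3 alone and 0.73 without D1399Y replicate 2 alone. For deviations from the group means it was 0.49, and 0.62 with the means of the replicate numbers also removed. The 2 libraries left out for its -0.58 were dCas9 replicate 3 and dCas9-VP64 replicate 2.

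Genes that act on collagen or join it, and marker genes of cell types, were read beside it, from 9 lists of 95 genes, 71 of them tested. In edgeR 0 of the 71 passed in any of the 5 pairwise tests (0.0% to 0.00684% of all genes). In each, 1 to 3 had an unadjusted p under 0.05, beside 1.86% to 5.89% of all genes. DESeq2 passed 1 of them, KDR, in each of the 3 comparisons of the core, and limma-voom passed 0. In the test among the 4 groups KDR, an endothelial receptor gene, passed in edgeR (adjusted p = 0.0224, edgeR), with 8.33 ± 1.02 CPM in the core group against 1.09 ± 0.51 with dCas9. FLT1, another endothelial receptor gene, had 3087 counts and a mean of 66.1 CPM, while CDH5, which defines endothelial cells, had 2 counts in all. Genes for folding and modifying collagen chains had 6 of 18 members above 0 with the core against dCas9, at a median of -0.07. Without dCas9 replicate 3 it was 12 of 19 at a median of 0.03. Examples with the core against dCas9 were the prolyl hydroxylase subunit P4HA2 (log2 0.06 ± 0.18) and P3H3 (-0.18 ± 0.24). MIA3, which loads procollagen for export, was at 0.41 ± 0.21. Genes for procollagen processing and crosslinking had 7 of 12 above 0 at a median of 0.09. Among them were ADAMTS2 (0.35 ± 0.24), an enzyme that cuts the N-terminal propeptide, and PCOLCE (-0.55 ± 0.26). Collagen receptors had 5 of 8 above 0 at a median of 0.16, or 0.05 without dCas9 replicate 3. Among them were the integrin chain ITGA2 (0.30 ± 0.23), the receptor kinase DDR2 (0.68 ± 0.49) and LAIR1 (-0.37 ± 0.33). DDR2 was at 11.7 ± 11.4 CPM with dCas9. LAIR1 was at -1.02 ± 0.36 with D1399Y and -0.81 ± 0.34 with dCas9-VP64. P3H3, PCOLCE and LAIR1 had the smallest p of their lists in the test among the 4 groups. Other basement membrane genes, which make the laminins and perlecan that join type IV collagen, had 14 of 14 above 0 with the core against dCas9 at a median of 0.21, with HSPG2 at 0.56 ± 0.31 and LAMC3 at 0.50 ± 0.22. Without dCas9 replicate 3 it was 11 of 14 at a median of 0.05. D1399Y against dCas9 gave 4 of 18, 7 of 12, 5 of 8 and 11 of 14 above 0 in that order of lists. Its medians were -0.13, 0.08, 0.22 and 0.14. Without dCas9 replicate 3 D1399Y gave 6 of 19, 6 of 12, 5 of 8 and 4 of 14. The medians were then -0.04, 0.03, 0.06 and -0.07. dCas9-VP64 gave 4 of 18, 4 of 12, 4 of 8 and 7 of 14, or 5 of 19, 4 of 12, 3 of 8 and 3 of 14 without that library. Of all genes 52.5% were above 0 with the core, 50.2% with D1399Y and 50.9% with dCas9-VP64. Without dCas9 replicate 3 these shares were 48.9%, 50.7% and 49.8%. The enzymes that degrade collagen had 2 tested members of 7, with MMP2 at 0.25 ± 0.34 and MMP9 at -0.23 ± 0.37.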

How the data were processed

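RNA of 12 libraries from HEK293T cells was sequenced. The authors deposited raw counts per RefSeq transcript for each library, made on hg19 with Bowtie2, CASAVA, DESeq2 1.6.2, R 3.1.2 and SAMtools (role and order unstated), per the submitters' processing notes. No source used here says how reads shared by isoforms or strands were counted, so reads of antisense partners cannot be told apart.

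The 40709 transcripts were named through RefSeq (39324) and GENCODE (517), and 868, holding 1.073% of counts, stayed unnamed. Counts were summed per gene. Tests used edgeR 4.0.16 under R 4.3.3 (TMM, filterByExpr with minimum count 10 and total 15, quasi-likelihood, 1 fit of group means over 12 libraries, two-sided, Benjamini-Hochberg over 14613 genes, threshold 0.05), after a check on simulated data. Values per kilobase use the longest transcript. Alternatives were DESeq2 1.42.0, limma-voom (limma 3.58.1), upper-quartile and RLE factors, no filter, 1 CPM in 6 libraries, a replicate block, the compared groups alone, CV41 libraries alone, single transcripts, each library left out and, chosen after seeing the data, offsets for length and GC content. Correlations used 100000 permutations, and those without group and replicate-number means or without 1 library were chosen after seeing the data. All 3 same-numbered pairs of libraries deviated together for D1399Y and dCas9 (r from 0.237 to 0.496) and for the core and dCas9-VP64 (0.25 to 0.36), which pairs them by number, and in the other comparisons at least 1 pair did not reach 0.1.

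The members, gene lists and named genes were chosen with earlier results of these data known. Values per library are given for COL6A3, the highest member per kilobase of each class with a tested member, the 3 highest of all, the type IV genes and members with an unadjusted p under 0.05. Software included Python 3.11.15, pandas 2.3.3, scipy 1.17.1 and matplotlib 3.10.9.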

Additional observations from a re-analysis of the deposited data

How the results depend on the processing

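The count of collagen genes past the threshold was 0 in each of the 6 tests under all 23 alternatives (22 for the test among the 4 groups), and leaving out each library in turn gave 0 to 0. The number at an unadjusted p under 0.05 moved between 0 and 7, and the smallest adjusted p of any alternative was 0.202. The labels number the replicates alike in all groups, but same-numbered libraries correlated in their deviations at -0.175 to 0.496, over 0.1 in 14 of 18 pairs, and 12 of 12 libraries correlated best with their own number. With the replicate number as a block, 0 collagen genes passed in each test, so the block changed no call at the adjusted threshold. Against dCas9 it gave 6 collagen genes at an unadjusted edgeR p under 0.05 with dCas9-VP64, 5 with the core and 5 with D1399Y. The core gave 2 against D1399Y and 2 against dCas9-VP64, and the test among the 4 groups gave 5. Without the block these counts were 2, 3, 1, 1, 1 and 2. The share of all genes at that p is at hand for the main fit only. The counts with the block, and the range of 0 to 7, therefore cannot be read as particular to collagen genes. Intervals and standard errors in the text come from the fit without the block. The median log2 fold change of the core against D1399Y, 0.07, was -0.02 with no filter, -0.02 at 1 CPM in 6 libraries and -0.01 with length and GC offsets, which were at hand for 96.4% of tested genes. With those offsets 20 of 26 collagen genes were above 0 with the core against dCas9, at a median of 0.14 (49.5% of all genes). D1399Y against dCas9 also gave 20 of 26, at a median of 0.24 (49.4%), and dCas9-VP64 gave 15 of 26 at 0.05 (48.0%). The log2 fold change of COL6A3 with the core against dCas9 was 1.39 with the offsets (CV41 alone: 1.28). COL6A3 and COL6A5 were not tested on single transcripts, nor COL6A5 in fits of the compared groups alone. Upper-quartile factors put 43.9% of all genes above 0 with dCas9-VP64, and 59.3% with the core against D1399Y, where 18 of 26 collagen genes were above 0. The low totals limit what can be said of COL6A3, COL6A5 and the 18 untested genes, for which 3 libraries a group leave wide intervals.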
